A study of Mus musculus with 4 samples.

Results

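Cell cycle genes were compared between laminin-positive and laminin-negative interstitial cells of the mouse testis. The set holds cyclins and cyclin-dependent kinases (CDKs), Rb and E2F family genes, S phase genes, mitosis genes and CDK inhibitors, Cdkn1c excepted. Members were taken by symbol: 55 of 56 listed names matched one of the 22802 rows of the expression table, and the remaining name, Foxm1p, matched none. Foxm1 itself, a transcription factor of G2 and mitosis genes, shares a row with 4933413G19Rik and is described among the further genes. Both groups came from C57BL/6J mice carrying mFLE-Cre and CAG-CAT-EGFP, a reporter whose EGFP marks cells with a history of Cre activity, with testes taken on postnatal day 10. The groups were EGFP-expressing laminin-negative cells and EGFP-expressing laminin-positive cells, with 2 libraries each. All titles call the cells EGFP-positive, whereas the design text gives weak EGFP for the laminin-negative cells, so laminin staining and EGFP level cannot be told apart. The labels do not say what drives mFLE-Cre, or whether the libraries of a group came from separate animals. P-values therefore measure only the spread between these libraries, which may be technical.

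In a dividing cell, D-type cyclins with Cdk4 or Cdk6, followed by cyclin E with Cdk2, phosphorylate the Rb family and release E2F factors, which turn on genes for DNA replication. Cyclin A and cyclin B with Cdk1 then carry the cell into mitosis, whose genes are held down in resting cells by the DREAM complex and activated by B-Myb and FoxM1. CDK inhibitors of the Cip/Kip family (Cdkn1a, Cdkn1b) and the Ink4 family (Cdkn2a to Cdkn2d) block these kinases. In the postnatal testis, progenitors of adult Leydig cells and peritubular myoid cells still divide, whereas steroid-producing Leydig cells divide little.

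The unit is FPKM, the fragments of a gene relative to transcript length and to all mapped fragments. The 4 libraries had FPKM sums of 491475 to 548986 and 11794 to 12011 loci at 1 FPKM or more. The smallest values of genes with a single transcript were taken within a fixed window, which bounds the depth estimate. From these, 1 FPKM of a 2 kb transcript was estimated to stand for 54 to 57.9 fragments, if fragments were 200 bases long. Counting error is therefore largest for members near 1 FPKM. Log2(FPKM + 1) correlated at r = 0.994 within the laminin-negative and 0.996 within the laminin-positive libraries; between populations r was 0.898 to 0.903. These correlations run across genes, which are not independent replicates. The labelled populations were checked with marker lists. All 7 Leydig cell markers were lower in laminin-positive cells, where they summed to 162 to 208 FPKM, against 4613 to 4870 in laminin-negative cells. Most of the latter sum came from a row that names both Insl3 and Jak3 (4079.7 and 3821.7 FPKM). The log2 differences of the 7 ran from -5.22 to -1.44. All 8 smooth muscle and peritubular myoid markers were higher, at 5856 to 5949 against 213 to 232 FPKM.

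Most cell cycle genes differed little between the populations. On the log2(FPKM + 1) scale the largest difference was that of the CDK inhibitor gene Cdkn1a. The ratio of mean FPKM was larger for Cdk6 (4.53-fold) than for Cdkn1a (3.99-fold), but Cdk6 was under 1 FPKM in laminin-negative cells. A gene was called when its adjusted p from limma on log2(FPKM + 1) was under 0.05. Of 53 tested members, 12 were called higher and 8 lower in laminin-positive cells, or 37.7%, against 52.9% of all 12348 tested genes (26.6% higher and 26.3% lower). The called members had a log2 difference of at least 1 in size in 2 cases, Cdkn1a and Cdk6 (3.77% of the tested members, against 13.2% of all tested genes). The difference was under 0.5 in size for 46 of the 53 members (86.8%) and for 70.1% of all tested genes. The median log2 difference was 0.03 over the tested members and 0.01 over all tested genes. Libraries were also scaled to equal FPKM sums, which here and below leave out the Rn45s row. The median over all tested genes then moved to 0.12 and the higher share of all calls from 50.3% to 64.1%. With this scaling 19 of the 53 members were called higher and 7 lower, against 4255 and 2382 of the 12348 tested genes. Directions of small differences therefore depended on the scaling. The populations did not overlap for 45 of the 55 members, 26 higher and 19 lower, against 77.2% of all tested genes (39.4% higher and 37.8% lower). Cdk6 passed the filter on low values through its laminin-positive libraries alone, so its call was largely fixed by the filter. Without Cdk6, 11 of 52 tested members were called higher and 8 lower (36.5%), and 1 had a difference of at least 1 in size. E2f2 and Cdkn2b did not pass the filter. Where a pair of averages is given below, that of the laminin-negative cells stands first. In sorted bulk cells, fewer cycling cells and less RNA per cycling cell cannot be told apart.

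**Figure D1:**
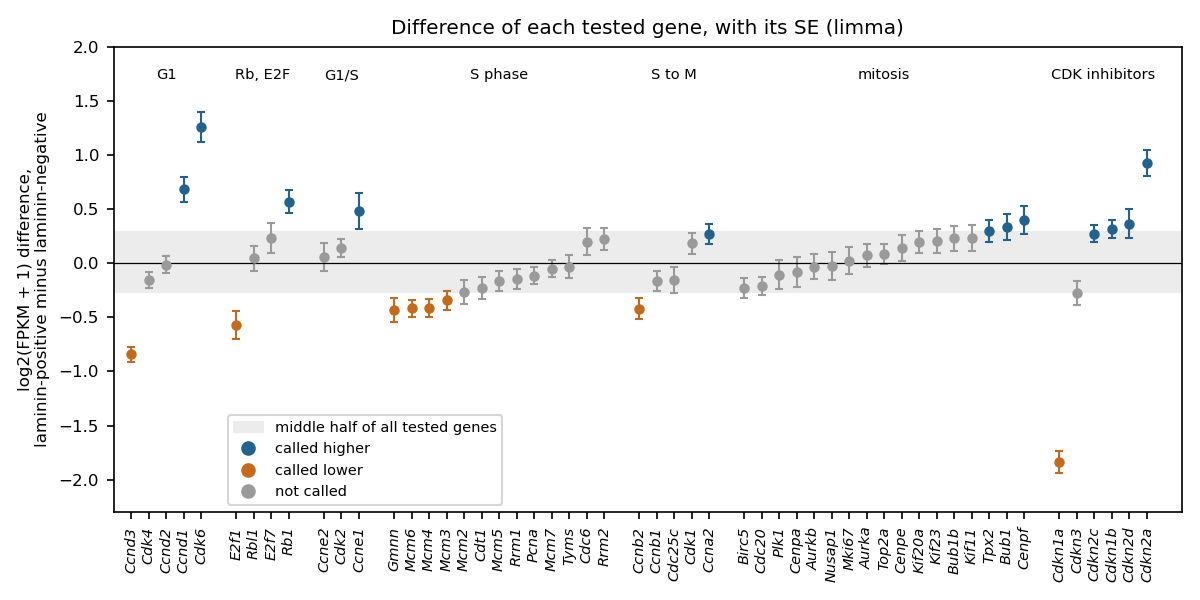
Log2(FPKM + 1) difference of each tested member (laminin-positive minus laminin-negative, vertical axis) with its standard error from limma, grouped by phase and coloured by call; the grey band spans the 25th to 75th percentile of all 12348 tested genes (-0.27 to 0.29). Cdkn1a lies far below the band at -1.84 and Cdk6 far above it at 1.26, while most S phase genes lie below zero and most mitosis genes above it.

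Replication and mitosis genes are known to be switched on from different promoter elements, so promoter windows from RefSeq (GRCm38.p6, 250 bases before to 50 bases from the annotated start) were searched on both strands; 44 members had a window. Replication gene promoters are known for E2F sites, searched here as TTTCCCGC, TTTGGCGC, TTTCGCGC or TTTGCCGC. Mitosis gene promoters are known for the CHR element (TTTGAA or TTCGAA) near the start and for CCAAT boxes (CCAAT). E2F letters were found for 6 of 11 S phase members (54.5%) and for 0 of 14 mitosis members, against 2.6% of the 27025 genes with a window. CHR letters were found for 11 of 14 mitosis members (78.6%) and 2 of 11 S phase members (18.2%), against 21.7% of all genes. CCAAT letters were found for 12 of 14 mitosis members (85.7%), 8 of 11 S phase members (72.7%) and 41.1% of all genes. In the member windows, 1 pair of different motifs shared bases. A match describes letters and not a bound site. The 5 excerpts below were chosen because their genes carry the contrasts reported further on: Mcm3 and Mcm6 fell, Cenpf and Bub1 rose, and Ccnb2 fell although it carries the same kind of letters as Cenpf and Bub1. Each runs from 150 bases before the start through 30 bases from the start on, on the minus strand. Capitals mark E2F letters on either strand in the Mcm genes, and CHR or CCAAT letters on either strand in Ccnb2, Cenpf and Bub1.
Mcm3, chr1:20820283-20820462: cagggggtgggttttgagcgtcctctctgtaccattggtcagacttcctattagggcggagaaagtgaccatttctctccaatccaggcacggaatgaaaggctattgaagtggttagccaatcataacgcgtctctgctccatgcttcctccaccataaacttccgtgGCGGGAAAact
Mcm6, chr1:128359676-128359855: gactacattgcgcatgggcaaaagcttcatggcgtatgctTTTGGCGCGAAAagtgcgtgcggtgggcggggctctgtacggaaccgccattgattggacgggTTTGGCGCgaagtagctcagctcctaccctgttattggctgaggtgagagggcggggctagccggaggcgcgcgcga
Ccnb2, chr9:70421525-70421704: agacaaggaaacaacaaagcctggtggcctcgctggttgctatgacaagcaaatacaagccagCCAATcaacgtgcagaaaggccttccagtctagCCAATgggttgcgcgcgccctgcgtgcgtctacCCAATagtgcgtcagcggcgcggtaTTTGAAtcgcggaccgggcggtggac
Cenpf, chr1:189688057-189688236: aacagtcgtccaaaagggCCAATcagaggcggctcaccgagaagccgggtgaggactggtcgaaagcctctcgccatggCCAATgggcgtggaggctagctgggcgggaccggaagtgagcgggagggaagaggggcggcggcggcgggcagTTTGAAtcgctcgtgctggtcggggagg
Bub1, chr2:127831830-127832009: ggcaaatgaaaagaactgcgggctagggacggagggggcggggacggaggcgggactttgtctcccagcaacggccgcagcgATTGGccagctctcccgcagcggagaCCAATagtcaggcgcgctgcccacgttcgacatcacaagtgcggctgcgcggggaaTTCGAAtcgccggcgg

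**Figure D2:**
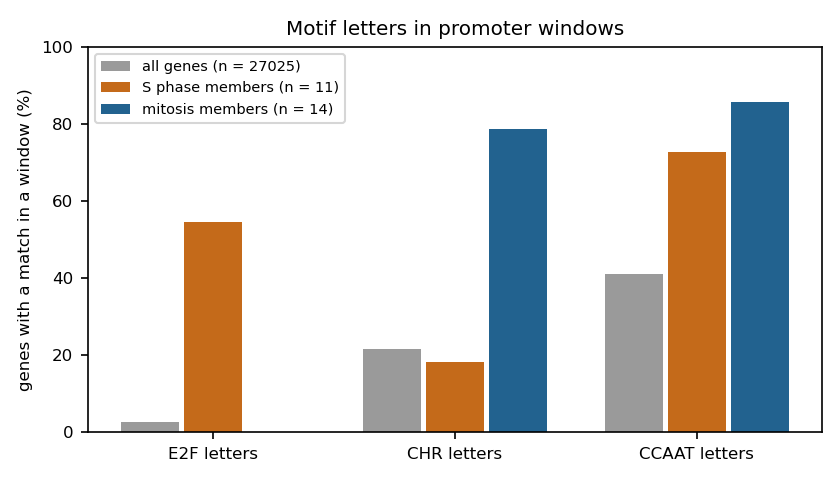
Share of genes (percent, vertical axis) with E2F, CHR or CCAAT letters in a promoter window, for all 27025 genes with a window, 11 S phase members and 14 mitosis members. E2F letters stand out among the S phase bars at 54.5% and CHR letters among the mitosis bars at 78.6%.

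In level, the most abundant members were Ccnd3 and Cdk4, while the other G1 genes Ccnd1 (2.83 FPKM) and Cdk6 (1.78 FPKM) were among the lowest. Averaged over the 4 libraries, Ccnd3 (199.8 FPKM) and Cdk4 (159.8 FPKM) were the only members at 100 FPKM or more, followed by the replication clamp Pcna (99.1 FPKM), Ccnd2 (51.7 FPKM) and Cdkn1b (31.2 FPKM). The member in the middle of the order stood at 6.73 FPKM, against a median of 11.0 over all tested genes, and 25 members averaged under 5 FPKM. S phase members had a median of 11.5 FPKM and mitosis members one of 4.71 FPKM. FPKM is scaled by transcript length, so these levels can be set side by side.

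**Figure D3:**
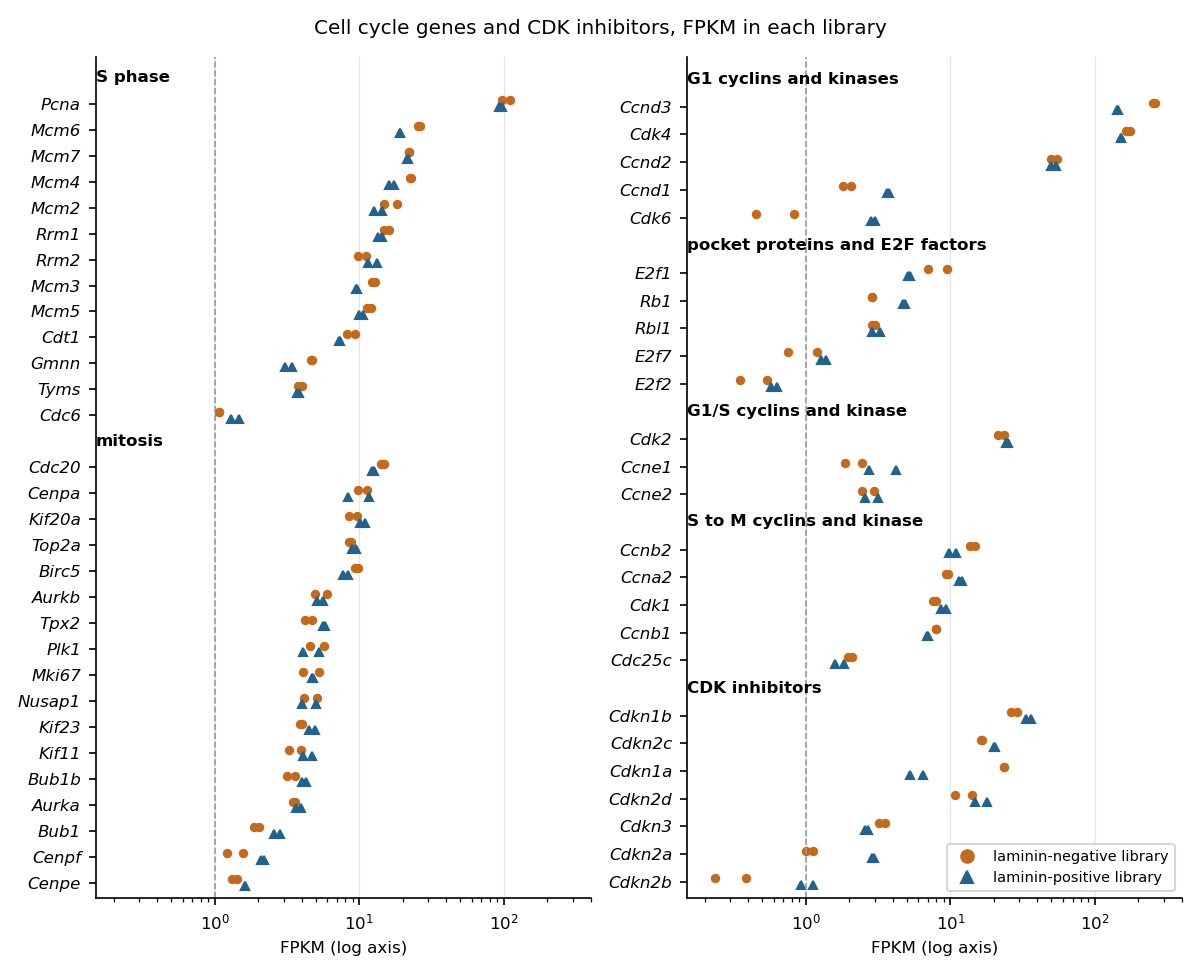
FPKM of every member in each library (horizontal log axis), grouped by phase and ordered by mean level; circles are laminin-negative and triangles laminin-positive libraries, and the dashed line is 1 FPKM. Ccnd3, Cdk4 and Pcna stand at the top, and for most mitosis genes the circles and triangles lie close together below 15 FPKM.

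Among the G1 genes, the D-type cyclins did not move together. Ccnd3 (chr17:47505051-47611492 in the table), the most abundant of them, stood at 254 and 259.4 FPKM in laminin-negative and at 144.4 and 141.5 FPKM in laminin-positive libraries. It fell 1.80-fold, with a difference of -0.84 on the log2 scale (SE 0.07, limma adjusted p = 2.23e-06) and no overlap between the populations. Ccnd1, the cyclin usually induced by growth factors, rose 1.92-fold from 2.06 and 1.82 FPKM to 3.65 and 3.78 FPKM (limma adjusted p = 5.07e-04). Ccnd2 was measured at 54.3 and 49.6 FPKM in laminin-negative and at 49.5 and 53.5 FPKM in laminin-positive libraries, and these ranges overlapped (limma adjusted p = 0.908). The ratio of Ccnd3 to Ccnd2 was thus 4.68 and 5.23 in the laminin-negative libraries and 2.92 and 2.64 in the laminin-positive ones.

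The partner kinases also differed from each other. Cdk6 (chr5:3344312-3522225) was listed at 0.831 and 0.454 FPKM in laminin-negative and at 2.83 and 2.999 FPKM in laminin-positive libraries. Its mean was 4.53-fold higher in laminin-positive cells (log2 difference 1.26, SE 0.14, limma adjusted p = 2.43e-05, and 0.0652 without variance shared across genes). Both laminin-negative libraries were under 1 FPKM, so the size of the ratio is uncertain and the gene entered the test through its laminin-positive libraries alone. Cdk4 stood at 162.9 and 174 FPKM against 150.5 and 151.8 FPKM. Its populations did not overlap, but the difference missed the threshold (limma adjusted p = 0.0929, and 0.0403 without laminin-negative replicate 1). Cdk4 remained over 50 times as abundant as Cdk6 in every library, with ratios of 196 and 383 in laminin-negative and of 53.2 and 50.6 in laminin-positive cells. Of the 5 G1 genes, 2 were thus called higher and 1 lower, or 1 higher and 1 lower of 4 without Cdk6. For the 5 genes the shares were 40% and 20%, against 26.6% and 26.3% of all tested genes. Without either laminin-positive library 1 was called higher, since Cdk6 then failed the filter, and without laminin-negative replicate 1 Cdk4 made 2 called lower.

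The Rb family and the E2F factors had 1 call in each direction among 4 tested genes. Each share was 25%, against 26.6% higher and 26.3% lower over all tested genes. Rb1 (chr14:73195502-73325791), which encodes the retinoblastoma protein that restrains E2F factors, was at 2.89 FPKM in both laminin-negative libraries and at 4.84 and 4.70 FPKM in the laminin-positive ones. It rose 1.65-fold (log2 difference 0.57, SE 0.11, limma adjusted p = 0.00106). E2f1, an activator of replication genes, stood at 9.51 and 7.02 FPKM in laminin-negative and at 5.28 and 5.11 FPKM in laminin-positive libraries. It fell 1.59-fold (limma adjusted p = 0.00392, and 0.185 without variance shared across genes), and the laminin-negative libraries were further apart from each other than the laminin-positive ones. The Rb relative Rbl1 (p107) averaged 2.93 and 3.06 FPKM with overlapping libraries. The repressor E2f7 averaged 0.98 and 1.32 FPKM, without a call (limma adjusted p = 0.188). E2f2 averaged 0.444 and 0.604 FPKM and was not tested.

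At the G1/S step, cyclin E1 was the called gene of 3 (33.3%, against 52.9% of all tested genes). Ccne1 was measured at 1.88 and 2.44 FPKM in laminin-negative and at 4.20 and 2.73 FPKM in laminin-positive libraries. It rose 1.60-fold (limma adjusted p = 0.0293), but laminin-positive replicate 2 lay close to the laminin-negative libraries. The call was lost when laminin-negative replicate 1 (limma adjusted p = 0.116) or laminin-positive replicate 1 (0.313) was left out, and also under quantile normalization, with no filter on low values and without variance shared across genes. Ccne2 averaged 2.72 and 2.87 FPKM with overlapping libraries, and their kinase Cdk2 averaged 22.4 and 24.7 FPKM (limma adjusted p = 0.176, and 0.0257 with equal FPKM sums).

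The called S phase genes were all lower in laminin-positive cells, at a share near that of all genes. Of 13 tested, 0 were called higher (0 at an unadjusted limma p under 0.05), against 26.6% of all tested genes. Called lower were 4 (30.8%), against 26.3% of all tested genes. The median log2 difference was -0.17, against 0.01 over all tested genes, and -0.05 against 0.12 with equal FPKM sums. Both laminin-positive libraries lay below both laminin-negative ones for 9 of the 13 and above them for 2, against 37.8% and 39.4% of all tested genes. The replicative helicase, a ring of Mcm2 to Mcm7 that unwinds DNA at origins, gave 3 of the 4 calls. Its 6 genes summed to 112.8 and 110.2 FPKM in laminin-negative and to 92.9 and 88.9 FPKM in laminin-positive libraries. Each of the 6 was lower in both laminin-positive libraries. With equal FPKM sums Mcm7 turned to a log2 difference of 0.07 while the other 5 stayed below zero, and Mcm3 was not called (limma adjusted p = 0.0661).

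Mcm6 stood at 25.7 and 26.3 FPKM in laminin-negative and at 19.2 and 19.3 FPKM in laminin-positive libraries, and fell 1.35-fold (log2 difference -0.42, SE 0.08, limma adjusted p = 0.00104). Mcm4 fell 1.35-fold as well, from 22.4 and 22.9 FPKM to 17.4 and 16.2 FPKM (limma adjusted p = 0.00162, and 0.0612 without variance shared across genes). Mcm3 fell 1.30-fold, from 12.2 and 12.8 FPKM to 9.71 and 9.56 FPKM (limma adjusted p = 0.00789). For all 3 genes the gap between the populations was wider than the gap between their libraries. Mcm7, in contrast, stood at 22.3 and 22.2 FPKM against 21.6 and 21.4 FPKM (limma adjusted p = 0.626), so its ratio to Mcm6 went from 0.867 and 0.846 to 1.13 and 1.11. Mcm2 averaged 16.5 and 13.5 FPKM (limma adjusted p = 0.0635, and 0.00564 without laminin-negative replicate 2, 0.0226 without laminin-positive replicate 1 and 0.0208 with the replicate number as a block). Mcm5 averaged 11.7 and 10.3 FPKM (limma adjusted p = 0.156).

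The factors that load and restrain the helicase gave 1 further call. Gmnn, which encodes geminin, the inhibitor of the loading factor Cdt1, was at 4.67 and 4.74 FPKM in laminin-negative and at 3.05 and 3.43 FPKM in laminin-positive libraries. It fell 1.45-fold (limma adjusted p = 0.007, and 0.0708 without laminin-positive replicate 1 and 0.0746 without variance shared across genes). Cdt1 averaged 8.80 and 7.34 FPKM (limma adjusted p = 0.0764, and 0.0298 without laminin-negative replicate 2). The other loading factor, Cdc6, stood at 1.07 FPKM in both laminin-negative libraries and at 1.29 and 1.48 FPKM in the laminin-positive ones, without a call (limma adjusted p = 0.195). With quantile normalization Cdt1 was called lower (limma adjusted p = 0.0295). The promoters of Cdt1 and Cdc6 both held E2F letters, as those of Mcm3 and Mcm6 shown above did.

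Genes for nucleotides and the replication clamp were not called. Pcna stood at 96.5 and 109.6 FPKM against 97.6 and 92.4 FPKM, with overlapping libraries (limma adjusted p = 0.262, and 0.0474 without laminin-negative replicate 1). Rrm1 and Rrm2, the subunits of ribonucleotide reductase, lay on opposite sides. Rrm1 averaged 15.5 and 13.9 FPKM, and Rrm2 averaged 10.5 and 12.4 FPKM. With equal FPKM sums Rrm2 was called higher (limma adjusted p = 0.017). Rrm2 was called without laminin-negative replicate 2 (limma adjusted p = 0.0369), which made 1 S phase gene called higher, and it was 0.0928 with all libraries. Thymidylate synthase (Tyms) averaged 3.88 and 3.77 FPKM.

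A further list of 38 replication genes that are not members had 0 of 37 tested called higher by limma (1 at an unadjusted p under 0.05). Over all tested genes this share was 26.6%. Called lower were 7 (18.9%, below the 26.3% of all tested genes). Its median log2 difference was -0.11, and -0.02 with equal FPKM sums. It holds origin proteins, polymerases, clamp loaders and chromatin factors of the fork. Its largest called differences were in Pole2, a subunit of DNA polymerase epsilon (-0.45, limma adjusted p = 0.0138), the maintenance methyltransferase Dnmt1 (-0.35, limma adjusted p = 0.0215) and the cohesion factor Dscc1 (-0.35, limma adjusted p = 0.0422). None of the 3 calls held without each library in turn. The limma adjusted p of Pole2 was 0.0964 without laminin-negative replicate 2. That of Dnmt1 was 0.122 without laminin-negative replicate 1 and 0.0548 without laminin-positive replicate 2. That of Dscc1 was 0.101 and 0.113 without laminin-negative replicate 1 or 2, and 0.066 and 0.366 without laminin-positive replicate 1 or 2. The count of lower calls was 4 without laminin-negative replicate 2, 1 without laminin-positive replicate 2 and 1 with equal FPKM sums.

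Between S phase and mitosis, the cyclins A and B went in different directions. Ccna2, the cyclin of S phase and G2, stood at 9.39 and 9.70 FPKM in laminin-negative and at 11.5 and 12.0 FPKM in laminin-positive libraries. It rose 1.23-fold (limma adjusted p = 0.0256). Its adjusted p from limma was 0.0555 with laminin-negative replicate 1 left out, and 0.0727 and 0.177 with laminin-positive replicate 1 or 2 left out, and without variance shared across genes it was 0.0685. Ccnb2, a partner of Cdk1 at mitotic entry, stood at 13.6 and 14.9 FPKM in laminin-negative and at 11.0 and 9.85 FPKM in laminin-positive libraries, and fell 1.37-fold (log2 difference -0.42, SE 0.10, limma adjusted p = 0.00365, and 0.11 without variance shared across genes). The populations did not overlap for either gene. Ccnb1 was also lower in both laminin-positive libraries, at 7.90 and 7.96 against 7.04 and 6.93 FPKM, without a call (limma adjusted p = 0.177, and 0.0341 without variance shared across genes). Cdk1 itself averaged 7.74 and 8.93 FPKM (limma adjusted p = 0.133, and 0.0369 with equal FPKM sums). Its activating phosphatase Cdc25c averaged 2.02 and 1.72 FPKM (limma adjusted p = 0.315).

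The mitosis genes as a group had sums that overlapped between the populations. Summed over the 17 genes, they came to 98.2 and 93.7 FPKM in laminin-negative and to 101.4 and 96.2 FPKM in laminin-positive libraries, with a median log2 difference of 0.09, and 0.20 with equal FPKM sums. By limma 3 were called higher and 0 lower (2 lower at an unadjusted p under 0.05). The called share of 17.6% was below the 26.6% of all tested genes called higher alone, and 26.3% of all tested genes were called lower. Both laminin-positive libraries lay above both laminin-negative ones for 10 genes and below them for 2. Over all tested genes these shares were 39.4% and 37.8%. The common proliferation markers did not differ by the test: Mki67 stood at 5.25 and 4.10 against 4.68 and 4.81 FPKM (limma adjusted p = 0.875), with overlapping libraries. Top2a, which untangles chromosomes, averaged 8.62 and 9.21 FPKM (limma adjusted p = 0.461). For both genes the difference was smaller than its SE.

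The 3 called mitosis genes act at kinetochores and the spindle. Cenpf, a kinetochore protein, stood at 1.57 and 1.21 FPKM in laminin-negative and at 2.196 and 2.09 FPKM in laminin-positive libraries, and rose 1.54-fold (limma adjusted p = 0.0214). The checkpoint kinase gene Bub1 rose 1.40-fold, from 1.87 and 2.01 FPKM to 2.58 and 2.84 FPKM (limma adjusted p = 0.0321). Tpx2, an activator of Aurora A on the spindle, rose 1.28-fold, from 4.21 and 4.72 FPKM to 5.79 and 5.65 FPKM (limma adjusted p = 0.0347). The populations did not overlap for these genes, but each call was lost when any 1 of 3 libraries was left out, with no filter on low values, with quantile normalization and without variance shared across genes. Without laminin-positive replicate 1 and 2 in turn, the limma adjusted p was 0.123 and 0.0803 for Cenpf, 0.0927 and 0.241 for Bub1, and 0.161 and 0.12 for Tpx2. It was 0.122 for Cenpf without laminin-negative replicate 2, and 0.0924 for Bub1 and 0.116 for Tpx2 without laminin-negative replicate 1. Without laminin-positive replicate 1 limma called 0 mitosis genes in either direction (1 higher and 1 lower at an unadjusted p under 0.05), and without laminin-positive replicate 2 it called 0 as well (1 higher and 0 lower at an unadjusted p under 0.05). With equal FPKM sums 7 were called higher and 0 lower (0 lower at an unadjusted p under 0.05). Of all 12348 tested genes, 4255 were then called higher and 2382 lower, so calls rose for genes in general. With quantile normalization 0 were called higher (1 at an unadjusted p under 0.05) and 2 lower.

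The other mitosis genes had small differences. The spindle motors Kif11, Kif20a and Kif23 were higher in both laminin-positive libraries, with log2 differences of 0.23, 0.20 and 0.21, and were not called. Without laminin-negative replicate 1, Kif11 (limma adjusted p = 0.0434) and Kif20a (limma adjusted p = 0.0471) were. The checkpoint gene Bub1b averaged 3.39 and 4.14 FPKM (limma adjusted p = 0.11), and the kinetochore motor Cenpe averaged 1.37 and 1.62 FPKM. With equal FPKM sums Kif11, Kif20a, Kif23 and Bub1b were called higher (limma adjusted p = 0.0469, 0.0337, 0.0442 and 0.0389). Birc5 (survivin), at 9.60 against 8.06 FPKM, and Cdc20, the activator of the anaphase-promoting complex, at 14.6 against 12.4 FPKM, were the 2 genes lower in both laminin-positive libraries (limma adjusted p = 0.0663 and 0.0606), and both were called lower with the trimmed mean of log ratios (0.0474 and 0.0394) and with quantile normalization (0.0276 and 0.0334). Aurora A (Aurka) averaged 3.55 and 3.79 FPKM and was above in both laminin-positive libraries by a margin within 1 SE. The libraries of the populations overlapped for Aurkb, Plk1, Cenpa and Nusap1, whose log2 differences lay between -0.11 and -0.02.

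Markers of other testis cells moved beside these genes, and their part in the cell cycle values was not tested. Germ cell markers, a list of 12, summed to 20.4 and 23.9 FPKM in laminin-negative and to 57.3 and 57.6 FPKM in laminin-positive libraries. By limma 9 of 10 tested were higher, or 7 of the 8 that did not pass the filter through the laminin-positive libraries alone. The most abundant, Uchl1, rose from 5.70 and 6.53 FPKM to 22.7 and 22.6 FPKM, and no marker of the list was at 0. Sertoli cell markers, a list of 10, summed to 224.1 and 219.6 against 266.4 and 236.8 FPKM, with 5 of 8 tested higher and 1 lower (3 higher and 1 lower of the 6 that did not pass the filter through the laminin-positive libraries alone), and the most abundant, Clu, fell from 129.4 and 136.4 to 98.3 and 77.2 FPKM. The median log2 difference of the 8 tested Sertoli markers was 1.14, with differences from -0.60 (Clu) to 1.99. Of the Sertoli markers, Fshr was listed at 0 in laminin-negative replicate 1. Without laminin-positive replicate 1 the Sertoli calls were 3 higher and 2 lower, and without laminin-negative replicate 2 there were 2 lower. Macrophage markers, a list of 10, summed to 10.2 and 5.26 against 53.9 and 46.5 FPKM, with Lyz2 the most abundant at 1.95 and 0.586 against 11.9 and 11.6 FPKM, and none at 0. All 8 tested were called higher, but 6 of them passed the filter through the laminin-positive libraries alone, so this count was largely fixed by the filter. Cd74, which was not tested, stood at 3.09 and 0.681 against 0.793 and 0.377 FPKM. Endothelial markers, a list of 8, summed to 174.2 and 181 against 20.5 and 18.9 FPKM, nearly all of it from Cdh5 in the laminin-negative libraries (165.2 and 173.1 FPKM), where Tie1 was listed at 0. By limma 1 of 4 tested endothelial markers was higher and 2 were lower, and the higher one, Emcn, passed the filter through the laminin-positive libraries alone. The 4 untested ones (Pecam1, Kdr, Tie1 and Cldn5) were higher in both laminin-positive libraries, all at 1.14 FPKM or less, and with no filter on low values 5 were called higher and 2 lower. The higher call was lost without either laminin-positive library, and 1 lower call was left without either laminin-negative library. Of 6 erythroid markers 5 were found and 0 passed the filter on low values, with sums of 1.16 FPKM or less and the alpha and beta globin rows listed at 0 in laminin-positive replicate 1. Leaving out 1 library changed the count of germ cell calls by no more than 1.5 times, whereas the macrophage markers called were 2 without laminin-positive replicate 1 and 2 without laminin-positive replicate 2.

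A further list of 41 G2 and mitosis genes had 9 called higher (22%, below the 26.6% of all tested genes) and 1 lower (2.44%, against 26.3%). Its median log2 difference was 0.14, and 0.24 with equal FPKM sums. With that scaling, 4255 of all 12348 tested genes were called higher and 2382 lower. The largest called difference was in Anln (1.04, limma adjusted p = 3.78e-06), which encodes the contractile ring protein anillin and stood at 6.60 and 6.69 FPKM in laminin-negative and at 14.3 and 15.3 FPKM in laminin-positive libraries. Its listed locus (chr9:22055460-22389206) is also that of the smooth muscle marker Cnn1. Cnn1 rose from 3.32 and 3.14 FPKM to 195.6 and 194.3 FPKM. How fragments were divided between Anln and Cnn1 was not tested. Next came the mitotic kinase genes Pbk (0.60, limma adjusted p = 0.00188) and Nek2 (0.50, limma adjusted p = 0.0101, and 0.162 without laminin-positive replicate 1). The row that holds Foxm1 with 4933413G19Rik was at 4.49 and 4.39 FPKM against 6.31 and 5.89 FPKM and was called higher (log2 difference 0.38, limma adjusted p = 0.00914, and 0.0836 without laminin-positive replicate 1), but how its value divides between the genes is not known. Cdca3, named after its value was seen, was the 1 gene called lower, at 10.9 and 11.8 against 8.37 and 8.42 FPKM. The count of higher calls was 4 without laminin-positive replicate 1, 5 with no filter on low values and 15 with equal FPKM sums, and the count of lower calls was 2 without laminin-positive replicate 1.

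**Figure D4:**
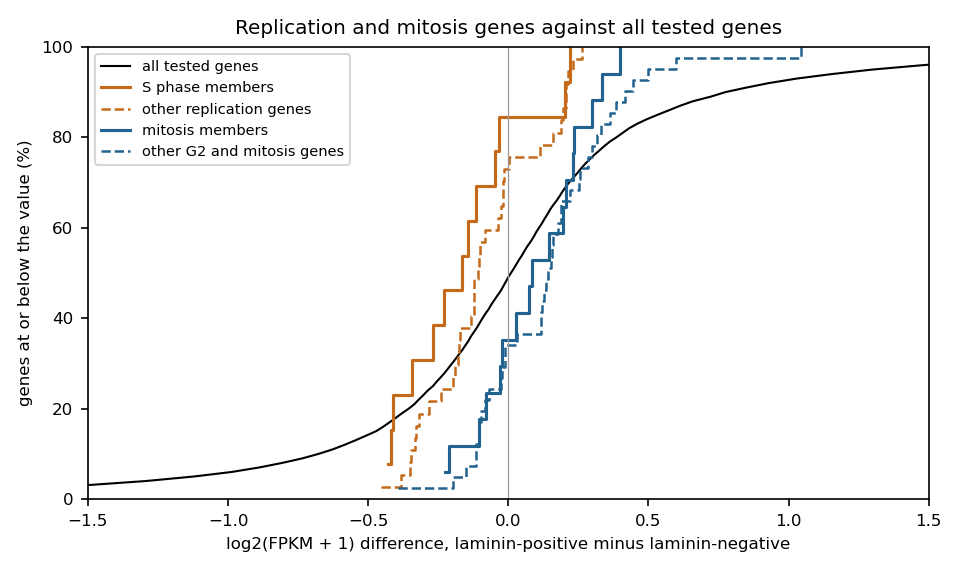
Cumulative share of genes (percent, vertical axis) by log2(FPKM + 1) difference (laminin-positive minus laminin-negative, horizontal axis), for 13 S phase members, 37 other replication genes, 17 mitosis members, 41 other G2 and mitosis genes and all 12348 tested genes. The replication curves lie to the left of the mitosis curves, with medians of -0.17 and -0.11 against 0.09 and 0.14, and all 4 are narrower than the curve of all genes. With equal FPKM sums these medians are -0.05 and -0.02 against 0.20 and 0.24, and that of all genes is 0.12.

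The CDK inhibitors held the largest difference of the whole set on the log2(FPKM + 1) scale and moved in different directions. Cdkn1a (chr17:29090986-29100722), which encodes p21, the inhibitor induced by p53 and in resting or differentiating cells, stood at 23.4 and 23.5 FPKM in laminin-negative and at 6.51 and 5.23 FPKM in laminin-positive libraries. It fell 3.99-fold (log2 difference -1.84, SE 0.10, limma adjusted p = 1.27e-07), and the populations lay far apart. Its relative Cdkn1b, which encodes p27, stood at 29.0 and 26.3 FPKM in laminin-negative and at 33.2 and 36.3 FPKM in laminin-positive libraries. It rose 1.26-fold (limma adjusted p = 0.0089, and 0.082 without laminin-positive replicate 2 and 0.153 without variance shared across genes). The ratio of Cdkn1b to Cdkn1a was 1.24 and 1.12 in the laminin-negative libraries and 5.09 and 6.94 in the laminin-positive ones.

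The Ink4 inhibitors, which act on Cdk4 and Cdk6, were all higher in both laminin-positive libraries, as were 39.4% of all tested genes. Cdkn2a (chr4:89274473-89294619), whose row covers both of its products p16 and p19Arf, stood at 0.998 and 1.13 FPKM in laminin-negative and at 2.96 and 2.88 FPKM in laminin-positive libraries. It rose 2.75-fold (log2 difference 0.93, SE 0.12, limma adjusted p = 6.86e-05), with libraries of a population close to each other. Its neighbour Cdkn2b (chr4:89306289-89311032) was listed at 0.385 and 0.236 against 0.919 and 1.13 FPKM and did not pass the filter. The more abundant Cdkn2c rose 1.22-fold, from 16.3 and 16.6 FPKM to 19.9 and 20.2 FPKM (limma adjusted p = 0.0149, and 0.0688 and 0.0961 without laminin-positive replicate 1 or 2). Cdkn2d rose 1.31-fold, from 14.2 and 10.7 FPKM to 17.8 and 14.8 FPKM (limma adjusted p = 0.0348, and 0.21 without laminin-negative replicate 2 and 0.146 without laminin-positive replicate 1), and its libraries nearly met. This call was also lost with no filter on low values (0.127), with quantile normalization (0.0656), with no intensity trend (0.06) and without variance shared across genes (0.342). Cdkn2c remained the most abundant Ink4 gene in both populations, at 16.3 and 14.7 times Cdkn2a in laminin-negative and 6.73 and 7.03 times in laminin-positive libraries. Cdkn3, a phosphatase that acts on CDKs and is counted here with the inhibitors, averaged 3.37 and 2.61 FPKM (limma adjusted p = 0.0613). Of 6 tested inhibitors, 4 were thus called higher and 1 lower (66.7% and 16.7%, against 26.6% and 26.3% of all tested genes). Without either laminin-positive library 2 were called higher, and Cdkn3 made 2 lower with the trimmed mean of log ratios (limma adjusted p = 0.0494), with quantile normalization (0.0212) and with no intensity trend (0.0317).

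**Figure D5:**
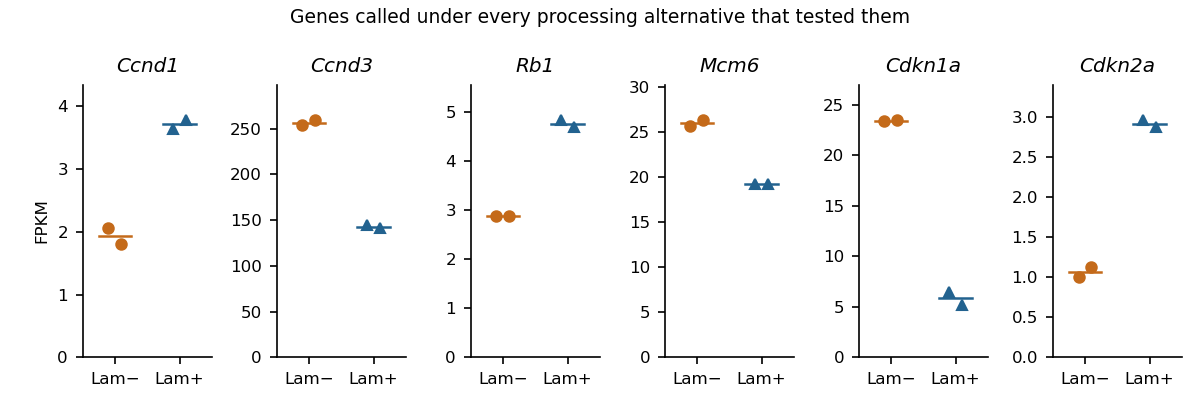
FPKM (vertical axis from 0) of the 6 members that were called under every processing alternative that tested them, with circles for laminin-negative and triangles for laminin-positive libraries and bars for the mean of 2 libraries. Ccnd3, Mcm6 and Cdkn1a are lower and Ccnd1, Rb1 and Cdkn2a higher in laminin-positive cells, and the libraries of a population lie close together in each panel.

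Since Cdkn1a is a known p53 target, 15 p53 targets and growth arrest genes were set beside it, and they moved in both directions. By limma 4 were called higher and 3 lower, with a median log2 difference of 0.11. The shares of 26.7% and 20% stood against 26.6% and 26.3% of all tested genes. The antiproliferative gene Btg2 rose from 182.9 and 189.9 FPKM to 333 and 335 FPKM (log2 difference 0.84, limma adjusted p = 2.58e-06). Plk2 fell from 54.9 and 57.6 FPKM to 34.2 and 26.9 FPKM (-0.87, limma adjusted p = 4.22e-05), and the stress gene Sesn2 rose from 8.25 and 7.30 FPKM to 13 and 11.6 FPKM (0.60, limma adjusted p = 5.64e-04). The remaining calls, named after their values were seen, were Mdm2, the p53 ubiquitin ligase (0.41), and Gadd45a (0.34) among the higher, and Phlda3 (-0.33) and Trp53 itself (-0.21) among the lower. Mdm2 kept its call without each library, while Gadd45a lost it without laminin-positive replicate 1 (limma adjusted p = 0.0952) and Phlda3 without laminin-positive replicate 2 (0.0605). Trp53 lost it without laminin-negative replicate 2 (limma adjusted p = 0.0757) and without laminin-positive replicate 1 or 2 (0.126 and 0.155). Without laminin-positive replicate 2 the split was 6 higher and 1 lower.

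Further regulators of CDKs and of E2F were mixed as well. Of 16 other CDK regulators, 2 were called higher and 4 lower (12.5% and 25%, against 26.6% and 26.3% of all tested genes). Cables1, which encodes a CDK-binding adaptor, rose from 1.65 and 1.90 FPKM to 5.58 and 6.22 FPKM (log2 difference 1.31, limma adjusted p = 3.80e-06). The phosphatase gene Cdc25b rose from 5.76 and 5.28 FPKM to 9.58 and 10.5 FPKM (0.76, limma adjusted p = 9.52e-05). Its listed locus is chr2:131127412-131604824, and sharing of fragments with other rows there was not tested. The cyclin G gene Ccng1, a p53 target, fell from 20.1 and 21.6 FPKM to 14.4 and 15.6 FPKM (-0.45, limma adjusted p = 0.00129). The other genes called lower, named after their values were seen, were the Cdk1-inhibiting kinase gene Wee1, the anaphase-promoting complex activator Fzr1 and Ccng2. Each of these 3 lost its call without laminin-positive replicate 2 (limma adjusted p = 0.0712, 0.119 and 0.0975), as did Ccng2 without laminin-positive replicate 1 (0.13), which left Ccng1 as the 1 lower call without laminin-positive replicate 2.

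Of 14 E2F and DREAM genes, 3 were called higher and 2 lower, with a median log2 difference of 0.04. The shares of 21.4% and 14.3% were below the 26.6% and 26.3% of all tested genes. Rbbp4, a histone-binding subunit of DREAM, rose from 41.5 and 44.1 FPKM to 56.9 and 60.5 FPKM (log2 difference 0.45, limma adjusted p = 5.25e-04). The repressive E2f4 fell from 26.7 and 24.9 FPKM to 20.4 and 20.2 FPKM (-0.33, limma adjusted p = 0.00511). Lin9, another DREAM subunit, was called higher (0.37, limma adjusted p = 0.043). Leaving out laminin-negative replicate 1 took its limma adjusted p to 0.259, and leaving out laminin-positive replicate 1 or 2 took it to 0.0726 and 0.14. The other calls, named after their values were seen, were E2f5 (0.28) among the higher and Tfdp2 (-0.26) among the lower. E2f5 lost its call without laminin-negative replicate 1 (limma adjusted p = 0.0667) or laminin-positive replicate 1 or 2 (0.0876 and 0.131). Tfdp2 lost its call without laminin-negative replicate 1 (limma adjusted p = 0.101) or laminin-positive replicate 1 (0.294). The counts of higher and lower calls ranged from 1 to 4 over these omissions.

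For 8 members the locus overlaps another row of the table, so fragments may have been divided between neighbours, and the sources used here do not give whether the counting used strand. They are Ccnd2, Ccnd3, Rb1, Ccne2, Ccna2, Kif20a, Nusap1 and Cdc20. Ccnd3 overlaps Bysl, which stood at 6.30 and 6.37 against 5.99 and 6.13 FPKM. Rb1 overlaps Lpar6, at 5.76 and 8.12 against 7.31 and 5.40 FPKM, with overlapping libraries. Cdc20 overlaps Elovl1, which stood at 38.9 and 37.4 against 24.1 and 25.5 FPKM. Ccna2, called higher, overlaps Exosc9, which was also higher, at 6.91 and 8.54 against 8.72 and 9.44 FPKM. Kif20a overlaps Cdc23, also higher, at 17.6 and 18.2 against 21.8 and 22.8 FPKM, and Brd8, with overlapping libraries. Libraries overlapped for Ints8, beside Ccne2, too. Both Oip5, beside Nusap1, and 9330179D12Rik, beside Ccnd2, were lower in both laminin-positive libraries. How fragments were divided between such rows was not tested.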

How the data were processed

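Gene expression was measured by RNA sequencing in 4 libraries, 2 per population. The authors deposited FPKM per gene locus, per the file headers; TopHat2 (2.1.1) and Cufflinks (2.2.1) appear in the submitters' processing notes, which assign no step to either. The sources used here do not give the genome build, the annotation, how strand was treated or any scaling; 99.6% of 21073 rows with a unique symbol overlapped the RefSeq gene of that symbol on GRCm38.p6. RNA was taken up in directional libraries, per the labels' protocols.

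Genes at 1 FPKM or more in at least 2 libraries (12348) were compared with limma 3.58.1 (R 4.3.3) on log2(FPKM + 1), a scale that understates differences of genes near 1 FPKM. The fit used empirical Bayes moderation with an intensity trend, two-sided, and Benjamini-Hochberg adjustment over all tested genes, with 0.05 as the threshold. Residual degrees of freedom numbered 2, and the prior ones had a median of 8.21; an exact permutation of 2 against 2 libraries cannot go below p = 0.333. Folds are ratios of mean FPKM. The fit was tested on simulated data. Depth was estimated from the smallest values of genes with 1 transcript within a fixed window, and the read totals are unknown. Tables and promoter windows were handled in Python 3.11.15 with pandas 2.3.3.

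The members and the further lists were chosen with earlier results of these data known. Every member may be named; from each further gene list the 3 called genes with the largest difference and the Foxm1 row were named, and from each marker list the most abundant gene. Further genes of these lists (the remaining calls of short counts, and markers at 0, not tested or passing the filter through 1 population alone) were named after their values were seen. Cnn1 was named because it shares its locus with Anln. The marker lists were Sertoli, germ, macrophage, endothelial, erythroid, Leydig, smooth muscle and peritubular myoid, and steroid-lineage interstitial cells; of the last list 3 were called higher and 2 lower of 6, with Tcf21 the most abundant. Alternatives were another pseudocount, 2 other filters, 3 other scalings, no intensity trend, no variance shared across genes, a replicate block and each library left out.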

Additional observations from a re-analysis of the deposited data

How the results depend on the processing

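Of the 20 called members, 6 (Ccnd1, Ccnd3, Rb1, Mcm6, Cdkn1a and Cdkn2a) were called under each of the 13 alternatives that tested them and 14 lost the call under at least 1, while 15 others gained one under at least 1; none changed direction with a call. With no filter on low values 0 mitosis members were called higher, and with at least 5 FPKM in 2 libraries 5 members and 1 mitosis member were. Equal FPKM sums gave 19 members, 1 S phase member and 7 mitosis members called higher, among 4255 of all 12348 tested genes called higher. The trimmed mean of log ratios gave 2 mitosis members called lower. Quantile normalization gave 7 members and 0 mitosis members called higher, and 2 mitosis members called lower. Without variance shared across genes 1346 genes were called higher and 1211 lower, with 4 members higher and 5 lower, 2 S phase members lower and 0 mitosis members higher; the adjusted p was then above the threshold for Cdk6 (0.0652), E2f1 (0.185), Ccne1 (0.316), Gmnn (0.0746), Mcm4 (0.0612), Ccna2 (0.0685), Ccnb2 (0.11), Bub1 (0.0894), Cenpf (0.142), Tpx2 (0.117), Cdkn1b (0.153) and Cdkn2d (0.342). For these settings the cause was not tested. Leaving out each library in turn leaves 1 population with a lone library, assumed to vary like the others; it gave 4 to 11 members called higher and 8 to 10 lower, 0 to 1 S phase members higher and 4 to 6 lower, 0 to 3 mitosis members higher, and 2203 to 3370 genes higher and 2669 to 2843 lower. Across the tested genes, the difference between replicates 1 and 2 correlated at 0.00809 between the populations. With 2 libraries per population, this value cannot decide whether same-numbered libraries were paired. A replicate block gave 3376 genes higher and 3343 lower, 12 members higher and 9 lower, 0 S phase members higher and 5 lower, and 3 mitosis members higher and 0 lower; among the members it changed the call of Mcm2 alone. Depth limits members near 1 FPKM most.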
